A study of Mus musculus with 8 samples.

Results

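The kelch-like (KLHL) family of ubiquitin ligase adaptors and their cullin, CUL3, were examined in bulk RNA of mouse testis. Members were chosen by symbol: every row of the deposited table named Klhl followed by digits, plus Cul3, which gave 37 genes (36 Klhl genes and Cul3) of 57690 rows. For a repeated symbol the row with the highest mean would have been taken, but 0 symbols were repeated, so no measured value entered the choice of rows. The family was taken up because the difference of Klhl15 between the groups was already known from these libraries, so that difference is given as a description and supports nothing. All 8 libraries came from testes of C57BL/6 mice aged 8 weeks. The control group of 4 libraries had received 2 intraperitoneal injections of 200 µg of an IgG2b isotype antibody, and the treated group of 4 libraries the same number and amount of an antibody against PD-L1, the ligand of the T cell receptor PD-1. Testes were collected on day 7 after treatment. No transgene or deletion is named for either group. Whether each library is a separate animal is not stated in the labels, and p-values and errors therefore cover the spread among these samples alone, part of which may be technical.

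CUL3 is the scaffold of a family of multisubunit ubiquitin ligases. A KLHL protein binds CUL3 through its BTB and BACK domains and holds the protein to be ubiquitinated with its kelch repeats, so the adaptor decides the target, while the RING protein RBX1 brings the ubiquitin-loaded enzyme and attachment of NEDD8 to the cullin switches the ligase on. In testis the family is known for KLHL10, an adaptor of late spermatids whose loss of one gene copy makes male mice infertile. In the protein domain annotation of the deposited table, all 36 Klhl genes carried a kelch motif and a BTB domain, and 35 also a BACK domain, the exception being Klhl34.

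The promoters of the 2 most abundant members and of the member that differed most between the groups are shown first, since they differ in CpG content, a sequence feature that the choice of genes did not use. Each is the 250 bases upstream of the RefSeq start site (GRCm38.p6), written 5′ to 3′ on the gene's strand, with CpG dinucleotides in capitals. They lie at chr11:100441674-100441923 (plus strand) for Klhl10, chr1:80340691-80340940 (minus strand) for Cul3 and chrX:94234680-94234929 (plus strand) for Klhl15. The GENCODE M21 gene positions given below use other starts. By them the Klhl15 window lies within the gene, which starts at 94234599, and the Cul3 window lies apart from the gene, which ends at 80340480.
Klhl10: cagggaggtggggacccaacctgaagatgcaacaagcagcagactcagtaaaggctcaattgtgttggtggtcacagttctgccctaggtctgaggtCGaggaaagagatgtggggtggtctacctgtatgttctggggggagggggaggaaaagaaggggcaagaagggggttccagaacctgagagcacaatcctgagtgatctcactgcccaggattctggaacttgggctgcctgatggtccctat
Cul3: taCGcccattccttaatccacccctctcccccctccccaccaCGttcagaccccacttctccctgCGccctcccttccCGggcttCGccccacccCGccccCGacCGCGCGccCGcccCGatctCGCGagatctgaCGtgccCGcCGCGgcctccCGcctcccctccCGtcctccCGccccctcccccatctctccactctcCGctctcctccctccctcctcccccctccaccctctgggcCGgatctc
Klhl15: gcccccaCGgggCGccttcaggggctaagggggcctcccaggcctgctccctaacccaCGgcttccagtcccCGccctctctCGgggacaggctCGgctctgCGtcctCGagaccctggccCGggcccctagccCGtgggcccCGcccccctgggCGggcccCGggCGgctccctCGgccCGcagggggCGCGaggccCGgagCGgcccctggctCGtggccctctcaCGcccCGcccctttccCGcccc
The Klhl10 window held 1 CpG, the Cul3 window 23 and the Klhl15 window 24. Among 32851 RefSeq promoter windows of the same length the median was 6 CpGs, 18.8% held no more than that of Klhl10, and 12% held at least as many as that of Klhl15. RefSeq windows were found for 31 of the 37 members. Taking the window richest in CpG for each, 11 of 12 members with a mean of at least 10 TPM held more than 10 CpGs, Klhl10 being the exception. Of the 10 members with 1 to 10 TPM 7 did, and of the 9 members with a mean under 1 TPM 2 did, Klhl13 and Klhl29. The share of all windows with more than 10 CpGs was not counted. Members with several windows also had more chances to hold a rich one, so these counts are a description alone. The cyclic AMP response element TGACGTCA was found in the window of Klhl12 alone, and in 1.55% of all windows. Its core TGACG, which overlaps the full element, was in 12 of 41 member windows (29.3%) against 17.8% of all windows, with Cul3 among them. The letters GTTGCC, from the X-box bound by RFX factors, were in the windows of Klhl9 and Klhl40 and in 10.4% of all. Both strands were searched, and none of these letters was in the Klhl10 or Klhl15 window.

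Values are in TPM, a measure of transcript abundance that is scaled by gene length and by library. Levels can therefore be compared between genes, while the read depth is unknown. Differences were taken between mean log2(TPM + 1) values, a scale on which differences of low genes come out too small. Defining transcripts of the labelled tissue were present: the protamine gene Prm1 had a mean of 14553 TPM. IgG replicate 4 and anti-PD-L1 replicate 1 stood apart from the other 6 libraries on the first principal component, which held 32.2% of the variance: their scores were 44.5 and 54.5, and the others lay from -21.1 to -11.7.

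**Figure D1:**
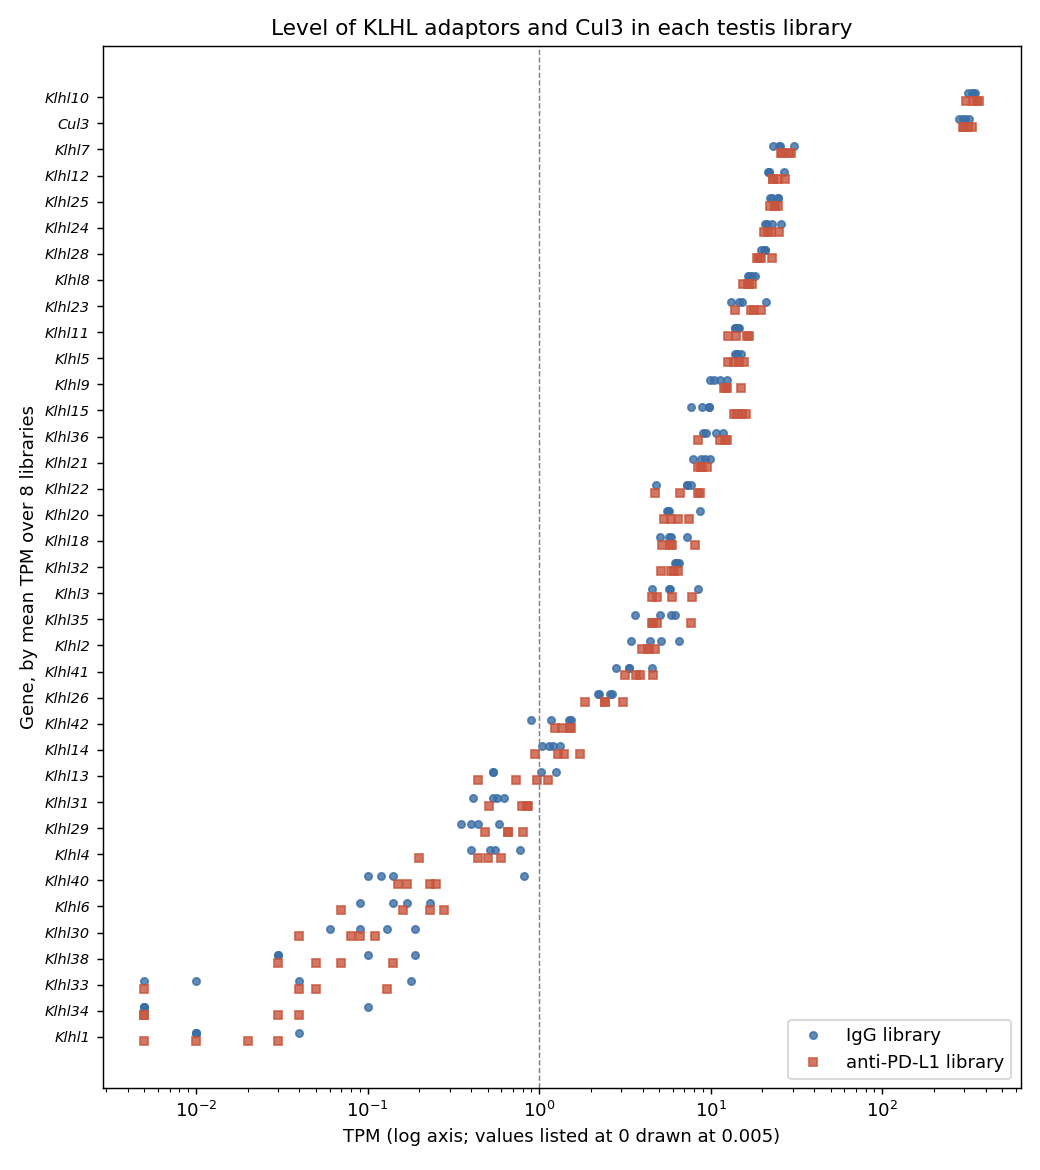
TPM of each of the 37 genes (rows, ordered by mean) in the 4 IgG libraries (circles) and the 4 anti-PD-L1 libraries (squares) on a log axis. The dashed line marks 1 TPM, the mean needed for testing. Klhl10 and Cul3 sit near 300 TPM and the others below 31 TPM.

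Expression of the family was dominated by a single adaptor. Klhl10 had a mean of 338 TPM over the 8 libraries, which placed it 485th among all rows, and Cul3 followed with 305 TPM. The next adaptor, Klhl7, had 26.8 TPM, so that Klhl10 exceeded it 12.6-fold. In all, 2 members were above 100 TPM, 12 had from 10 to 100 TPM, 12 from 1 to 10 TPM and 11 less than 1 TPM. Klhl14 at 1.26 TPM was the lowest member kept for testing and Klhl13 at 0.83 TPM the highest left out.

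Klhl10 (ENSMUSG00000001558, mm10 chromosome 11, 100441917 to 100457022, plus strand) was at 317.61, 346.66, 337.9 and 334.63 TPM in IgG replicates 1 to 4. In anti-PD-L1 replicates 1 to 4 it was at 309.39, 364.93, 355.78 and 337.25 TPM. The groups overlapped, with the lowest and the highest library both in the anti-PD-L1 group. The log2 difference was 0.03 (SE 0.06), with a 95% interval from -0.10 to 0.16. Klhl10 made up 55.4% ± 1.64 of the summed TPM of the 36 adaptors in IgG libraries and 54.8% ± 2.60 in anti-PD-L1 libraries (SD, n = 4). In bulk tissue, fewer cells of a type and less RNA per cell cannot be told apart, so these levels do not show whether the number of spermatids or their content was alike.

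Cul3 (ENSMUSG00000004364, mm10 chromosome 1, 80264923 to 80340480, minus strand), the scaffold described for KLHL adaptors, was at 279.8, 319.32, 294.83 and 304.56 TPM in IgG libraries. In anti-PD-L1 libraries it was at 294.68, 300.17, 333.99 and 313.96 TPM. Its groups overlapped as well, and the log2 difference was 0.05 (SE 0.06, 95% interval -0.08 to 0.18). Klhl10 was above Cul3 in each of the 8 libraries, by 1.05 to 1.22 times. The mean of that ratio was 1.12 ± 0.0288 in IgG and 1.10 ± 0.0770 in anti-PD-L1 libraries (SD, n = 4). The 35 adaptors other than Klhl10 summed to 269 ± 18.7 TPM in IgG and 282 ± 9.51 TPM in anti-PD-L1 libraries, and their sum was below Cul3 alone in each of the 8 libraries.

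Klhl15 (ENSMUSG00000043929, mm10 chromosome X, 94234599 to 94277724, plus strand) was the member with the widest difference. KLHL15 directs CUL3 to PPP2R5B, a regulatory subunit of the phosphatase PP2A, and to the DNA end resection factor CtIP, the product of Rbbp8. It was at 8.89, 9.79, 7.72 and 9.74 TPM in IgG replicates 1 to 4 and at 14.24, 15.98, 15.15 and 13.67 TPM in anti-PD-L1 replicates 1 to 4. The groups did not overlap: the lowest anti-PD-L1 library, replicate 4, was above the highest IgG library, replicate 2. The means were 9.04 ± 0.969 and 14.8 ± 1.02 TPM (SD, n = 4), a ratio of 1.63, and the log2 difference was 0.65 (SE 0.10). Over 17 alternative treatments of the data it ranged from 0.59 to 0.71. The groups stayed apart in each, but only TMM rescaling and quantile normalization could have changed that. After adjustment over all 20343 genes Klhl15 was not past the threshold, in the comparison as reported or in any of the alternatives. Its share of the summed TPM of the adaptors other than Klhl10 was 3.35% ± 0.242 in IgG and 5.25% ± 0.508 in treated libraries (SD, n = 4). Among the adaptors Klhl15 held rank 13 or 14 in IgG libraries and ranks 8 to 11 in anti-PD-L1 libraries.

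**Figure D2:**
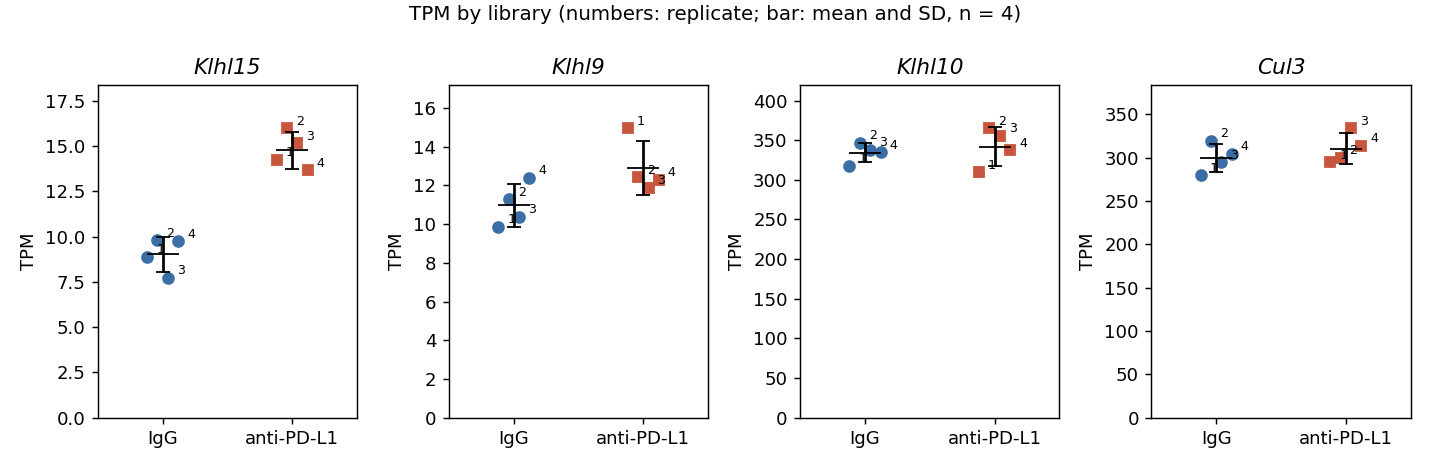
TPM of Klhl15, Klhl9, Klhl10 and Cul3 in each library, with the replicate number beside each point and the mean and SD of the 4 libraries as a bar. The Klhl15 groups are apart (7.72 to 9.79 against 13.67 to 15.98 TPM), and those of the other genes overlap.

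The genes around Klhl15 gave other values. Of the 4 tested genes on either side, within 401.5 kb, none had groups that did not overlap. Eif2s3x, a translation initiation factor gene on the opposite strand whose start site lies 21.7 kb from that of Klhl15, differed by 0.02 (SE 0.13) on the log2 scale. Apoo, a mitochondrial apolipoprotein gene 132.5 kb downstream, differed by -0.01 (SE 0.13). The median log2 difference of the 777 tested genes of the X chromosome was 0.03, beside 0.03 over all genes. GENCODE M21 lists 9 Klhl15 transcripts of 364 to 6241 bases, and the deposited gene length of 2363 bases equals 1 of them, Klhl15-205. TPM per gene does not separate these transcripts, and whether their proportions moved was not tested. The microRNA gene Mir7673, which lies within Klhl15, was listed at 0.

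Transcripts of described targets of KLHL15 were set beside it. The ligase acts on the proteins, and their amounts were not measured here. Rbbp8 was at 21.1, 21.26, 21.46 and 23.2 TPM in IgG libraries and at 26.24, 24.09, 22.58 and 25.71 TPM in anti-PD-L1 libraries, with a single pair of libraries out of order: IgG replicate 4 lay above anti-PD-L1 replicate 3. Its log2 difference was 0.17 (SE 0.07), and it did not pass (adjusted p = 0.918, limma, Benjamini-Hochberg). Ppp2r5b had a mean of 2.25 TPM in IgG and 2.36 TPM in treated libraries, and differed by 0.05 on the log2 scale. Dcx, a microtubule gene of young neurons, was barely detected, with means of 0.005 and 0.0125 TPM.

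Behind Klhl10, 4 adaptors had close levels of 22.4 to 26.8 TPM. Klhl7, an adaptor gene mutated in inherited retinal degeneration, was at 24.88, 25.31, 22.95 and 30.76 TPM in IgG and at 29.54, 25.76, 26.15 and 28.66 TPM in anti-PD-L1 libraries. Klhl12, whose product ubiquitinates the COPII coat protein SEC31 and Dishevelled, was at 21.89, 21.9, 21.63 and 26.59 TPM in IgG and at 27.26, 24.74, 23.04 and 23.17 TPM in anti-PD-L1 libraries. In both genes IgG replicate 4 was the highest of its group, above all 4 treated libraries for Klhl7 and within their range for Klhl12, while the other 3 IgG libraries lay below all 4 of them. The log2 differences were 0.09 (SE 0.10) for Klhl7 and 0.09 (SE 0.09) for Klhl12, and they depended on single libraries. Without IgG replicate 4 they were 0.17 and 0.16, with groups that then did not overlap, as in 11% of all genes. Without anti-PD-L1 replicate 1 they were 0.053 and 0.043, and without IgG replicate 3 the Klhl7 difference was 0.032.

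Klhl25 and Klhl24 showed no such order. Klhl25, an adaptor for ATP citrate lyase, was at 22.16, 24.56, 24.6 and 22.79 TPM in IgG and at 23.77, 23.58, 22.19 and 24.67 TPM in anti-PD-L1 libraries. Klhl24, which acts on keratin 14 in skin, was at 20.81, 22.65, 21.13 and 25.53 TPM and at 22.42, 21.59, 24.85 and 20.5 TPM. Their log2 differences were 0.002 (SE 0.07) and -0.01 (SE 0.09), and both changed sign under some alternatives. The means of Klhl12, Klhl25 and Klhl24 over all libraries, 23.8, 23.5 and 22.4 TPM, differed by about their SD within groups (1.03 to 2.39 TPM) or less, so the order among them is not firm.

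Adaptors of mitotic kinases were in the middle of the range, except Klhl13. KLHL9, KLHL13 and KLHL21 act on Aurora B, KLHL22 on PLK1 and KLHL18 on Aurora A. Klhl9, the member with the second widest difference, was at 9.87, 11.29, 10.38 and 12.4 TPM in IgG and at 14.95, 12.41, 11.87 and 12.29 TPM in anti-PD-L1 libraries. IgG replicate 4 again overlapped the treated group, and the log2 difference was 0.21 (SE 0.10, 95% interval -0.02 to 0.44). Leaving out single libraries gave 0.14 (without anti-PD-L1 replicate 1) to 0.27 (without IgG replicate 4). Without IgG replicate 4 the groups did not overlap, as in 11% of all genes. Klhl9 shares its locus with Gm26566 on the opposite strand, which was at 0.983 and 1.87 TPM on average in the 2 groups. The strand setting of the counting is not given in the sources used here, so reads of the pair may not be told apart.

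Klhl13, the X-linked relative of Klhl9 with the same orthology name in the deposited table, was at 0.843 ± 0.362 and 0.818 ± 0.301 TPM (SD, n = 4). Klhl21 was at 8.94 ± 0.835 and 8.91 ± 0.480 TPM, a log2 difference of -0.001. Klhl22 was at 6.75 ± 1.33 and 7.13 ± 1.84 TPM, and its replicate 3 was the lowest library in both groups, at 4.78 and 4.74 TPM. Klhl18 was at 5.98 ± 0.935 and 6.29 ± 1.27 TPM. Each of these genes had groups that overlapped.

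KLHL2 and KLHL3 bind WNK kinases, which set ion transport in the kidney. Klhl2 was at 4.88 ± 1.29 TPM in IgG and 4.33 ± 0.3 TPM in anti-PD-L1 libraries, and its log2 difference of -0.12 (SE 0.16) was the lowest of the family, but it was 0.01 without IgG replicate 4. Klhl3 was at 6.11 ± 1.65 and 5.78 ± 1.44 TPM (SD, n = 4), a log2 difference of -0.07 (SE 0.20). These are wide errors: the coefficient of variation of Klhl3 was 27.1% in IgG libraries, against 3.64% for Klhl10. Klhl20, an adaptor for the kinase DAPK1 and for PML, was at 6.39 ± 1.5 and 6.30 ± 0.920 TPM, and Klhl42, which acts on the microtubule-severing subunit katanin p60, at 1.27 ± 0.303 and 1.41 ± 0.136 TPM.

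Klhl10 had a close neighbour in the family. Klhl11, an autoantigen in a brain inflammation linked to testicular germ cell tumours, lies 5.59 kb away on chromosome 11, on the opposite strand and facing Klhl10 end to end. Its level of 14.1 ± 0.397 TPM in IgG and 14.9 ± 1.92 TPM in anti-PD-L1 libraries was far from that of Klhl10, whose mean was 23.3 times higher. Klhl6 and Klhl24 are 114.5 kb apart on chromosome 16 with means of 0.171 and 22.4 TPM, and Klhl41 and Klhl23 are 137.7 kb apart on chromosome 2 with means of 3.67 and 16.5 TPM. In each of these 3 pairs the neighbours differed in level, by 4.51 times or more.

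Adaptors known from skeletal muscle were low, with 1 exception. Klhl41, whose product stabilises nebulin in the sarcomere, was at 3.52 ± 0.746 and 3.82 ± 0.600 TPM (SD, n = 4). Its relative Klhl40 was at 0.1, 0.82, 0.14 and 0.12 TPM in IgG and at 0.15, 0.17, 0.23 and 0.25 TPM in anti-PD-L1 libraries, so that IgG replicate 2 alone carried the higher IgG mean. Klhl30 and Klhl38 stayed below 0.2 TPM in every library. Klhl31 was at 0.54, 0.62, 0.41 and 0.57 TPM and at 0.86, 0.85, 0.79 and 0.51 TPM, with anti-PD-L1 replicate 4 inside the IgG range. Of 8 skeletal muscle markers 2 reached a mean of 1 TPM, and their summed level was 11.5 to 16.0 TPM in IgG and 12.4 to 13.9 TPM in anti-PD-L1 libraries, mostly Actn3 at 10.7 TPM.

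Adaptors known from blood or brain were near the floor of the table. Klhl6, an adaptor gene of B cells, had means of 0.158 and 0.185 TPM, and Klhl1, a gene of neurons, 0.0175 and 0.015 TPM. The X chromosome carried 4 members, and only Klhl15 among them reached a mean of 1 TPM: Klhl13 had 0.83, Klhl4 0.498 and Klhl34 0.0213 TPM. Listed at 0 in at least 1 library were 3 members, Klhl1, Klhl33 and Klhl34.

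The remaining tested adaptors had overlapping groups. Klhl28, Klhl8, Klhl23, Klhl5 and Klhl36 were between 10 and 21 TPM on average. Of these Klhl28 and Klhl5 had the smallest relative spread in IgG libraries, at 20.4 ± 0.474 and 14.3 ± 0.543 TPM, and Klhl23 the largest, at 16.0 ± 3.46 TPM (SD, n = 4). In treated libraries the same genes were at 20.0 ± 1.80, 14.2 ± 1.31 and 17.1 ± 2.42 TPM. Klhl8 was at 17.2 ± 0.766 and 16.5 ± 0.904 TPM and Klhl36 at 10.2 ± 1.24 and 11.1 ± 1.82 TPM. Klhl32, Klhl35, Klhl26 and Klhl14 were between 1 and 7 TPM, and their log2 differences lay from -0.10 to 0.09.

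**Figure D3:**
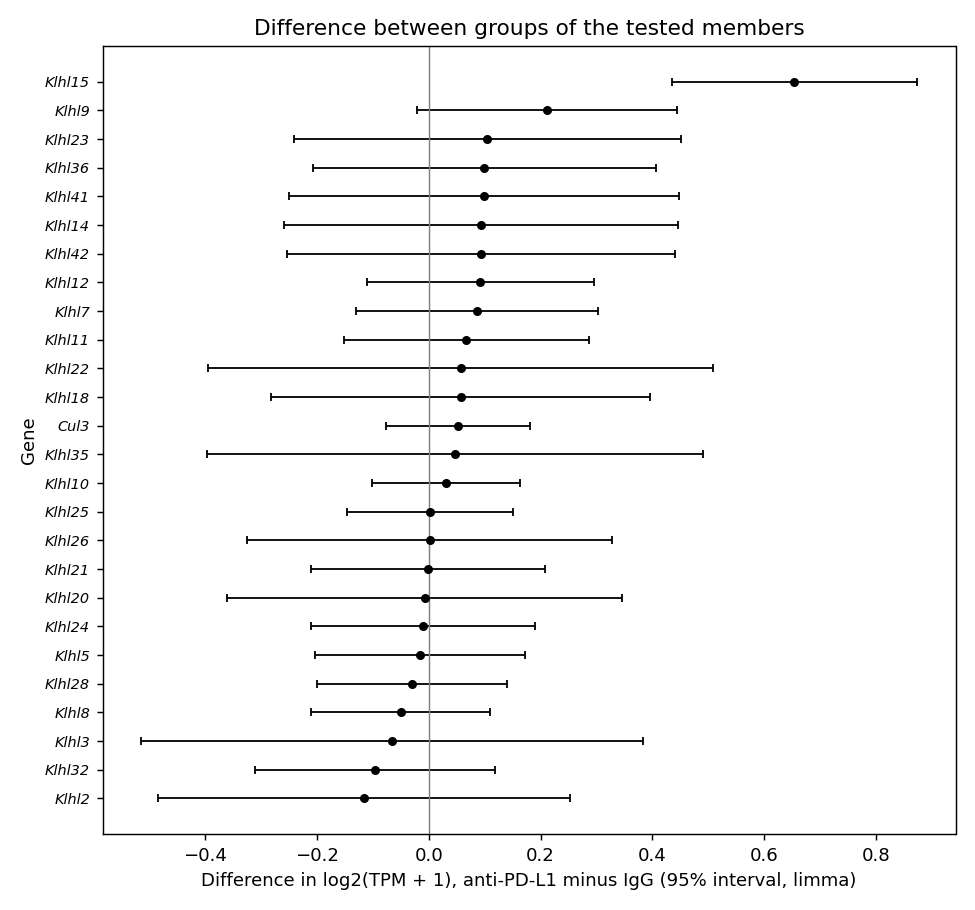
Difference in log2(TPM + 1) between anti-PD-L1 and IgG libraries for the 26 tested members, with 95% intervals from limma. Klhl15 lies at 0.65 and the other members from -0.12 to 0.21, with intervals that include 0.

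As a family, the adaptors and Cul3 differed little between the groups. Of 26 tested members 0 passed an adjusted p of 0.05, as did 0 of all 20343 genes (0% called, limma with Benjamini-Hochberg adjustment). Dropping a single library gave 15 genes for IgG replicate 4, 3 for anti-PD-L1 replicate 4 and 1 each for IgG replicate 2 and anti-PD-L1 replicate 1, none of them a member. At an unadjusted p under 0.05 there was 1 member, Klhl15, where 5.23% of all genes (1063) reached that value, 3% with higher and 2.22% with lower levels. The groups did not overlap for 1 member, again Klhl15, where 2.99% of all genes had such groups, 1.76% with higher and 1.23% with lower values. That count became 2 after quantile normalization (3.17% of all genes) or TMM rescaling (2.94%), with Klhl9 added. With fewer libraries, more genes of any kind have groups that do not overlap. The count was 4 without IgG replicate 4, with Klhl7, Klhl9 and Klhl12 added, where 11% of all genes had such groups, and 3 without anti-PD-L1 replicate 3, with Klhl28 and Klhl32 added as lower, where 5.71% did.

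The median log2 difference of the 26 members was 0.05, beside 0.03 over all genes tested, and 17 were above 0 and 9 below, beside 58.3% above 0 over all genes. With TMM rescaling and with quantile normalization 15 were above and 11 below. The other 25 members without Klhl15 had differences from -0.12 to 0.21. The 95% interval lay within 0.5 of 0 on the log2 scale for 23 of 26 members, beside 63.4% of all genes, the exceptions being Klhl15, Klhl22 and Klhl3. For most of the family, therefore, a difference of that size or more on this scale was outside the interval in these libraries. Differences of low genes come out too small on this scale, and 12 of the tested members averaged 1 to 10 TPM. For those a larger relative difference in TPM can lie within the same bound.

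**Figure D4:**
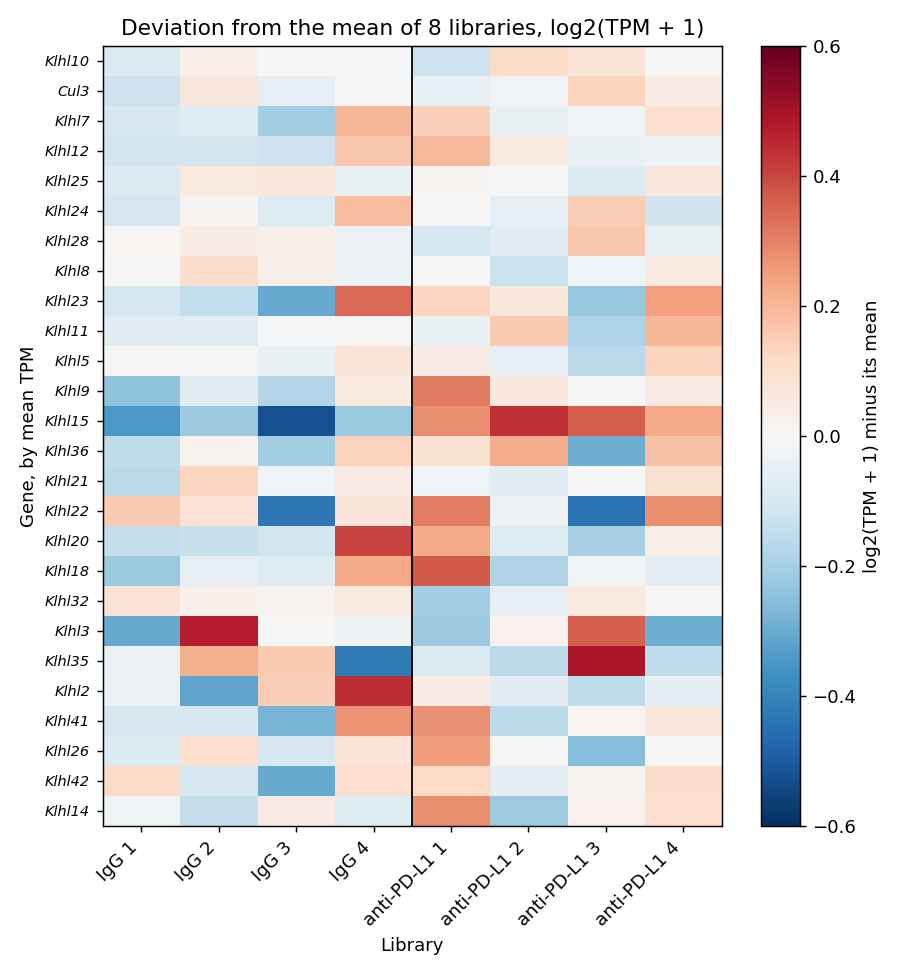
Deviation of each tested member (rows, by mean TPM) from its mean over the 8 libraries (columns), in log2(TPM + 1), red for higher and blue for lower. Klhl15 is the row that is blue in all 4 IgG and red in all 4 anti-PD-L1 libraries. IgG 4 and anti-PD-L1 1 hold the highest value of their group for 12 and 11 of 26 members.

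Single libraries held many of the highest and lowest values. IgG replicate 4 held the highest IgG value for 12 of 26 members (46.2%), and for 48.9% of all genes tested. Anti-PD-L1 replicate 1 held the highest value of its group for 11 of 26 (42.3%), and for 39.2% of all genes. IgG replicate 2 held the highest IgG value for 9 of 26 (34.6%), beside 17.8% of all genes. For IgG replicates 1 and 3 the shares were 11.5% and 7.69%, beside 18.1% and 15.1% of all genes. IgG replicate 3 was the lowest of its group for 11 members and anti-PD-L1 replicate 3 for 11, and the share over all genes was not counted for lowest values. Without both libraries that stand apart the Klhl15 log2 difference was 0.70, and 4 of 26 members had groups that did not overlap, Klhl15, Klhl7, Klhl9 and Klhl12, a share near the 16.1% of all genes in the same comparison.

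Genes of the enzymes that switch CUL3 on and off differed widely in level, Senp8 being the lowest at 3.31 and 3.40 TPM, and were close between the groups. Among 16 genes of the ligase core and of NEDD8 attachment, Cul3 included, 9 were higher and 7 lower, with a median log2 difference of 0.02, and 0 passed. The most abundant was Dcun1d1, which promotes NEDD8 transfer to cullins, at 840 ± 44.5 TPM in IgG and 807 ± 27.5 TPM in treated libraries (SD, n = 4). Rbx1, the RING subunit, was at 41.2 ± 3.20 and 43.7 ± 5.88 TPM, below Cul3 in both groups, and Nedd8 at 120 ± 10.7 and 119 ± 9.47 TPM. The smallest unadjusted p belonged to relatives of Dcun1d1: Dcun1d3 was at 75.9 ± 4.55 and 68.2 ± 4.12 TPM, a log2 difference of -0.15 (SE 0.06), and Dcun1d5 at 38.0 ± 4.98 and 44.1 ± 3.75 TPM, a difference of 0.22 (SE 0.10).

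The COP9 signalosome, which removes NEDD8 from cullins, was as even. Of its 10 genes 6 were higher and 4 lower, from -0.05 to 0.11 on the log2 scale, and 0 passed. Cops7a was at 204 ± 12.9 and 220 ± 15.0 TPM and Cops8 at 43.6 ± 2.95 and 45.8 ± 3.73 TPM (SD, n = 4). The catalytic subunit gene Cops5 was at 181 ± 3.48 and 179 ± 3.23 TPM.

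Among 8 genes of other cullins and their RING partner, 7 were higher and 1 lower, with a median log2 difference of 0.09, and 0 passed. Cul4a, the scaffold of DCAF ligases, was at 60.94, 64.4, 63.24 and 76.09 TPM in IgG and at 77.83, 74.26, 75.25 and 81.49 TPM in anti-PD-L1 libraries, and differed by 0.22 (SE 0.07) on the log2 scale. As with Klhl9 and Klhl12, the 3 other IgG libraries lay below the treated group and IgG replicate 4 within it. Cul5 was at 28.7 ± 0.978 and 31.4 ± 1.54 TPM (SD, n = 4), a difference of 0.12 (SE 0.06). None of these cullin genes approached Cul3 in level: Cul1, the next, was at 86.5 and 88.8 TPM on average.

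BTB-kelch genes without a Klhl symbol were tested for 13 of 14, with 8 higher and 5 lower and a median of 0.01 on the log2 scale. Kbtbd8 and Kbtbd12 had the smallest unadjusted p, with differences of 0.17 (SE 0.12) and -0.32 (SE 0.39), and in Kbtbd12 IgG replicate 2 was at 5.06 TPM, beside 0.8 to 2.47 TPM in the other IgG libraries. Keap1, the sensor that holds the antioxidant factor NRF2 in check, was at 32.4 ± 1.37 and 32.8 ± 2.99 TPM (SD, n = 4). Another 18 CUL3 adaptors split into 10 higher and 8 lower, the median being 0.02. Kctd13, an adaptor for the GTPase RHOA, was at 40.5, 41.97, 43.23 and 42.31 TPM in IgG and at 45.7, 53.57, 56.15 and 48.73 TPM in anti-PD-L1 libraries. It was the only 1 of the 18 with groups that did not overlap, where 2.99% of all genes had such groups. Its log2 difference of 0.27 (SE 0.07) did not pass (adjusted p = 0.657, limma, Benjamini-Hochberg). Kctd5 differed by 0.17 (SE 0.09).

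Of 26 genes whose proteins are described targets of KLHL ligases, 22 were tested, with 14 higher and 8 lower, a median of 0.04 on the log2 scale and 0 passed. Rbbp8, given above, and Unc119 had the smallest unadjusted p. Unc119, a lipid-binding trafficking gene, was at 33.5 ± 1.40 and 35.8 ± 0.579 TPM (SD, n = 4), a difference of 0.09 (SE 0.05). It was the only 1 of the 22 with groups that did not overlap, where 2.99% of all genes had such groups. The kinase genes Aurka, Aurkb and Plk1 differed by -0.08, -0.003 and -0.003.

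Marker genes of several cell types moved with the groups or with single libraries, and their part in the values above was not tested. The summed level of 8 Leydig cell markers was 1212 to 1577 TPM in IgG and 2172 to 3435 TPM in anti-PD-L1 libraries, mostly Insl3, while 3 of the 8 were higher and their median log2 difference was -0.03. All 8 elongating spermatid markers were lower, with sums of 59409 to 74749 and 56654 to 64543 TPM and a median of -0.15. Klhl10, an adaptor of the same stage, differed by 0.03. Round spermatid markers were higher in 6 of 8, with sums of 1476 to 1573 and 1469 to 1677 TPM, and spermatocyte markers in 7 of 8, with sums of 648 to 772 and 730 to 849 TPM. Adipocyte markers summed to 99.8 TPM in IgG replicate 1 and 34.6 TPM in IgG replicate 3, and to 9.12 to 14.7 TPM in the other 6 libraries, with 0 of 6 tested markers higher and a median of -1.05. Macrophage markers were higher in 6 of 8 tested, with sums of 70.7 to 89.2 and 77.3 to 99.9 TPM, and T cell markers in 1 of 3 tested, with sums of 35.1 to 59.9 and 39.1 to 42.9 TPM, mostly Cd3d. Spermatogonium markers were higher in 4 of 8, with sums of 122 to 146 and 116 to 145 TPM, and Sertoli cell markers in 6 of 8, with sums of 1218 to 1385 and 1170 to 1619 TPM. Peritubular myoid markers were higher in 0 of 6, endothelial markers in 1 of 6 and B cell markers in 0 of 2 tested, with medians of -0.07, -0.07 and -0.17. No marker of any list was at 0 in all 8 libraries.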

How the data were processed

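The deposited table gives TPM per gene, scaled to gene length and library total by the authors, with a column for each of 8 libraries (4 IgG, 4 anti-PD-L1), per the file headers. Tools listed in the submitters' processing notes are CASAVA 1.8, StringTie, HISAT2 and RSEM, and the build is mm10. What each did, the annotation release and the strand setting: not given in the sources used here. The unit keeps no depth, so no interval that needs counts is given. Columns were matched to samples by title.

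The 20343 genes averaging 1 TPM or more entered limma 3.58.1 (R 4.3.3) on log2(TPM + 1), with an intensity trend and a group term. Calls used a Benjamini-Hochberg adjusted p under 0.05. The code was tested on simulated data. GENCODE M21 (GRCm38, the assembly of mm10) gave positions for all 37 members, and RefSeq (GRCm38.p6) gave promoters. The TMM factors trimmed 30% of M and 5% of A values at each end and averaged the rest without weights.

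The members and lists were chosen with earlier results of these data known. Values in every library are given for Klhl10, Klhl15, Cul3, the 6 most abundant members, and any tested member with groups that do not overlap or an unadjusted p under 0.05. Library values of Klhl9, Klhl31, Klhl40, Rbbp8, Cul4a and Kctd13 are shown as well and were chosen after their values were seen, as were Klhl15's neighbours and the bound of 0.5 on the intervals. From each pathway list the 2 genes with the smallest p are named. Rbx1, Nedd8, Cops5, Keap1, Aurka, Aurkb, Plk1, Ppp2r5b and Dcx were added from the lists for their function. Dcun1d1, Senp8 and Cul1 are named for their levels, after their values were seen. Alternatives tried: TMM rescaling, quantile normalization, pseudocount 0.1, a 5 TPM filter, none at all, array quality weights, a fit without the trend, the replicate block, and leaving out each library or both that stand apart.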

Additional observations from a re-analysis of the deposited data

Results flagged for a closer look

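In 6 of 76 groups of 4 libraries examined, 1 library lay far from the other 3 by Dixon's criterion, which chance meets in about 1 of 20 groups. Klhl12 was at 26.59 TPM in IgG replicate 4, beside 21.63 to 21.9 TPM in the other IgG libraries. Klhl20 was at 8.64 TPM in IgG replicate 4, beside 5.59 to 5.71 TPM. Klhl22 was at 4.78 TPM in IgG replicate 3, beside 7.22 to 7.7 TPM. Klhl35 was at 7.7 TPM in anti-PD-L1 replicate 3, beside 4.55 to 4.83 TPM. Kbtbd8 was at 7.91 TPM in anti-PD-L1 replicate 4, beside 5.67 to 5.82 TPM, and Kbtbd12 at 2.33 TPM in anti-PD-L1 replicate 2, beside 0.97 to 1.17 TPM. IgG replicate 4 gave 2 of the 6 values, and anti-PD-L1 replicate 1 gave 0.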

How the results depend on the processing

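Klhl15 kept its direction, its separated groups and its side of the threshold under all 17 alternatives. Only TMM rescaling and quantile normalization could have changed its direction or the separation of its groups. The family median was 0.05 in the comparison as reported and ranged from 0.0019 (no filter) to 0.07 (without IgG replicate 4). It stayed within 0.12 (1 SD between libraries) of its value, but that bound is wider than the median itself and a fall to 0 would also have met it. Genes past the threshold numbered 1 with a pseudocount of 0.1, 5 with array quality weights and 8 without both libraries that stand apart, and 0 to 15 with each library left out, the highest without IgG replicate 4. Members with groups that did not overlap were 2 with quantile normalization, 2 with TMM rescaling, 4 without both libraries (16.1% of all genes), and 1 to 4 with each library left out (4 without IgG replicate 4, beside 11% of all genes). Members at an unadjusted p under 0.05 were 2 with quantile normalization, beside 1120 of all 20343 genes. They were 2 with TMM rescaling (1011 genes) and 2 with array quality weights (2155 genes). With each library left out they were 1 to 2, the 2 without IgG replicate 4, beside 1861 genes. The comparison as reported had 1 member, beside 1063 genes. Of 19 named genes 15 never changed sign, but the filters, the fit without the trend and the replicate block leave each difference as it was. Klhl25 was at -0.031 with quantile normalization, -0.027 with TMM rescaling, -0.023 with array quality weights, -0.017 without both libraries, and -0.025 to 0.029 with each library left out. Klhl24 was at 0.046 without both libraries and -0.061 to 0.049 with each left out, Klhl10 at -0.0019 to 0.077 and Kbtbd12, which had no value under the 5 TPM filter, at -0.55 to 0.031. The cause was not tested. The share of higher genes among those at an unadjusted p under 0.05 was 57.5%, and 47.6% with TMM rescaling and 46.8% with quantile normalization. With the replicate block 0 genes passed in limma (1065 at an unadjusted p under 0.05). The Klhl15 difference was 0.65, which a block in this balanced design cannot change. The labels give no shared animal, litter or day for libraries of the same number, and whether they share one was not tested. The correlations of their deviations were -0.115, 0.1, 0.0896 and -0.198 for replicates 1 to 4. The highest of any pair was 0.359, between IgG replicate 4 and anti-PD-L1 replicate 1. Depth is unknown, so no limit from counts can be given.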

Other observations

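A BTB adaptor outside the kelch family was as abundant as Klhl10. Btbd1, which binds topoisomerase I, was at 354 ± 11.4 TPM in IgG and 353 ± 3.71 TPM in treated libraries (SD, n = 4), which differed by -0.01 (SE 0.04) on the log2 scale. Its relatives Btbd2 and Btbd3 were at 17.8 and 18.6 TPM and at 1.96 and 1.89 TPM on average. Of the kelch genes without a Klhl symbol Ivns1abp was the highest, at 62.3 ± 16.9 and 67.1 ± 13.7 TPM, and Kbtbd6 followed at 34.8 ± 6.12 and 35.8 ± 8.11 TPM. These genes were chosen after their values were seen.

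For 8 of the 37 members the deposited gene length was below that of the longest transcript in GENCODE M21, Klhl15 among them, and for the other 29 it was equal to it. TPM divides by length, so levels of those 8 genes would depend on the transcript taken if the deposited length was used. Whether it was used is not given in the sources used here.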
